A study of Mus musculus with 6 samples.

Results

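The NK cell chemokine genes examined here were Ccl3, Ccl4, Ccl5, Ccl6, Ccl9 and Xcl1, 6 of 21900 protein-coding mouse genes in the RefSeq table used. Peaks were taken as belonging to one of them when the deposited gene symbol was that name. This gave 33 of 125057 deposited peaks, which merged into 19 of 84399 regions. Eomes, a T-box transcription factor, had been immunoprecipitated from the chromatin of splenic natural killer (NK) cells to find where it binds. Spleens of wild-type C57BL/6 mice, 8 to 12 weeks old, were pooled to obtain the NK cells, which then grew for 4 days in 100 ng/mL IL-15, their main survival and growth cytokine. The 3 separate experiments each gave 1 Eomes immunoprecipitate (IP) and 1 input of DNA that had not been immunoprecipitated, so 3 IP libraries stood against 3 inputs. All libraries shared the genotype, strain and culture, there was no sample lacking Eomes, and peak lists carry no expression values with which to check the purity of the cells.

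Chemokines are small secreted proteins that draw leukocytes along a gradient through G-protein-coupled receptors. NK cells are known for releasing Ccl3, Ccl4 and Ccl5, which attract monocytes and T cells, and Xcl1, which attracts the dendritic cells that carry Xcr1. Ccl6 and Ccl9 are close relatives of each other, described mainly in myeloid cells, and act through Ccr1. The 5 Ccl genes lie in one cluster on chromosome 11, and Xcl1 lies alone on chromosome 1. T-box factors such as Eomes contact DNA through a conserved domain that reads a short motif, searched here as GGTGTGA on both strands.

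Of the 6 genes, 4 (Ccl3, Ccl6, Ccl9 and Xcl1) had a promoter window in the RefSeq table of GRCm38.p6, the assembly behind the mm10 build of the peak lists. Ccl4 and Ccl5 did not. The 250 bases before the annotated start are shown for Xcl1 and Ccl3, 5′ to 3′ on the minus strand, because Xcl1 had a promoter peak next to this stretch in every experiment, covering 29 of its bases in experiment 3 and none in experiments 1 and 2, and no peak lay on that of Ccl3. The Xcl1 sequence is chr1:164935523-164935772 and the Ccl3 sequence is chr11:83649379-83649628. Capitals mark GGTGTGA, which Xcl1 held once and Ccl3 did not hold.
Xcl1: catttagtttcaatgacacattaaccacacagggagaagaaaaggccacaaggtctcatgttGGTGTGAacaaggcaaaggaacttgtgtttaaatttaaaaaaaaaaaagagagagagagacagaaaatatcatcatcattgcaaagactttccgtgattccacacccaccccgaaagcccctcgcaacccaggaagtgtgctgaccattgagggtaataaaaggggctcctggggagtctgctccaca
Ccl3: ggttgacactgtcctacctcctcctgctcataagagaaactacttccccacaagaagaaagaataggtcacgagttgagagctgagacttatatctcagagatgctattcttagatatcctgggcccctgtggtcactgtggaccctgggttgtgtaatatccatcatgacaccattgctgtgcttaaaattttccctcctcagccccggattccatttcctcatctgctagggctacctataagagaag
The full RefSeq windows reach from 250 bases before to 50 bases after a start, and all motif counts refer to them. The letters GGTGTGA or their reverse complement were found in 3.98% of all 32817 such windows. The Xcl1 match began at -188 bp from the RefSeq start. It lay 118, 103 and 33 bp outside the nearest edge of the Xcl1 promoter peak in experiments 1, 2 and 3, and at least 215 bp from the summit, so the match was near the peak and not under it. Neither Ccl6 nor Ccl9 held those letters. The shorter form AGGTGT, present in 13.7% of windows, was found in none of the 4.
Among motifs of other factor families, TGTGGT, the Runx letters found in 16.8% of windows, occurred in Xcl1 and Ccl3. The ETS letters CAGGAAG, found in 13.3%, occurred once in Xcl1 and at 2 places in Ccl6. The AP-1 letters TGANTCA, found in 7.81%, occurred in Ccl9. The STAT5 letters TTCNNNGAA (8.29% of windows) and the NF-kB letters GGGANTTCC (1.68%) occurred in none of the 4. AGGTGT and GGTGTGA overlap in the letters GGTGT, and a match is a description of the sequence only. The strongest sites described below lay beyond the reach of such promoter windows, and their sequences were not analysed here.

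Eomes peaks were found at 5 of the 6 chemokine genes, where 15561 of 21900 protein-coding genes had a peak in at least 1 experiment. Most of the chemokine regions that recurred between experiments lay upstream of a gene rather than at its start. Of the 19 regions, 5 had a peak in all 3 experiments, 4 in 2 and 10 in 1. A region with a peak in at least 2 of the 3 experiments is called reproducible. Reproducible regions made up 9 of the 19 (47.4%, exact 95% binomial interval 24.4 to 71.1%), where 23.8% of all merged regions were reproducible. All 3 experiments held 5 of the 19 regions (26.3%), and for the whole series this share was 12.2%. By gene, Xcl1 had 3 reproducible regions, Ccl5 and Ccl4 had 2 each, Ccl3 and Ccl9 had 1 each and Ccl6 had none. In the whole series, 44.8% of protein-coding genes had at least 1 reproducible region, 16.1% had at least 2 and 6.72% had at least 3. The genes were named with earlier results of these data known, so these shares are read as background and no test was made over the 6. Without experiment 3, the list with the most peaks, 5 reproducible regions at 3 genes were left, as set out with the other settings in the closing section.

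The annotation of the chemokine regions was mostly distal. Only 2 of the 9 reproducible regions, at Xcl1 and Ccl4, fell in the promoter class (22.2%, exact 95% binomial interval 2.81 to 60.01%), which the deposited annotation extends to 3000 bp from a start. That class held 59.1% of all reproducible regions. The other 7 were distal intergenic, a class with 18.1% of all reproducible regions. Of these 7, 6 lay upstream of the assigned start and 1 (Ccl9) downstream. Of all reproducible regions outside promoters, 45.7% lay upstream. That wider set also holds regions within genes, which lie downstream of a start, so it is not a like comparison. The upstream share of distal intergenic regions alone was not counted. All 7 were within 50 kb of that start, as were 77.7% of all reproducible distal intergenic regions. With 9 regions the interval for the promoter share is wide. It treats the regions as independent, although 6 lie in the chromosome 11 cluster and 3 at Xcl1, so it is not a test against 59.1%.

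For every peak the lists give the pileup, taken here to be the number of IP fragments over the summit, and a fold enrichment over background. Both are the authors' own values, as are the distances to the nearest annotated transcript start, where a minus sign means upstream. The lists held 37456, 33841 and 46329 peaks in experiments 1, 2 and 3 once sub-peaks were collapsed. The median pileup was 12, 11 and 14 and the median fold was 4.10, 4.67 and 4.08. The smallest pileup was 8, 7 and 9, so sites with fewer fragments were not detectable, and read numbers per library were not used here. Pileup was highest in experiment 3 at all 9 reproducible chemokine regions, and the lists share no common depth scale, so comparisons across experiments use fold and rank within a list.

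Ccl5, which encodes a ligand of Ccr1 and Ccr3 stored and released by cytotoxic lymphocytes, had the strongest site of the 6 genes. The region (chromosome 11, 83534989 to 83535473) lay upstream of the gene, which runs on the minus strand from 83530518 to 83525778. Its distance to the start was -4471, -4534 and -4505 bp in experiments 1, 2 and 3. The pileup was 94, 80 and 141 fragments and the fold was 22.7, 21.4 and 19.9. By −log10 q-value the peak ranked 14, 28 and 21 in its list. The 3 summits fell within 7 bp of each other, whereas the median spread over all 10328 regions found in every experiment was 60 bp and 2.69% of those regions had a spread of 7 bp or less. The mean fold of 21.4 ± 1.38 (SD, n = 3) placed the region 43rd of the 10328 and 11th of 1658 distal intergenic ones.

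A further site of Ccl5 stood 5891 bp beyond the first, summit to summit (chromosome 11, 83540832 to 83541486). Its pileup was 35, 42 and 61 fragments and its fold 11.7, 17.3 and 16.4, with a mean of 15.1 ± 3.00 (SD, n = 3). It ranked 227th of the 10328 regions by mean fold. The nearer site had the higher fold in 3 of 3 experiments, by a ratio of 1.94, 1.24 and 1.21. Both sites lie within the RefSeq span of Gm32650, a long noncoding RNA gene that also overlaps Ccl5 itself. Between them, experiment 1 alone had a peak with 16 fragments (83539035 to 83539210, fold 5.23).

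At the Ccl5 promoter itself no reproducible region was found. A peak over the start (83530370 to 83530661) was called in experiment 3 alone, with 19 fragments and a fold of 4.12, so the upstream site had 4.83 times its fold in that experiment. Experiment 3 also had a weak peak inside the gene, with 10 fragments and a fold of 2.87 (83527215 to 83527519), near the foot of its list at rank 43677 of 46329. The absence of these peaks from experiments 1 and 2 does not show that the sites were free of Eomes there.

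**Figure D1:**
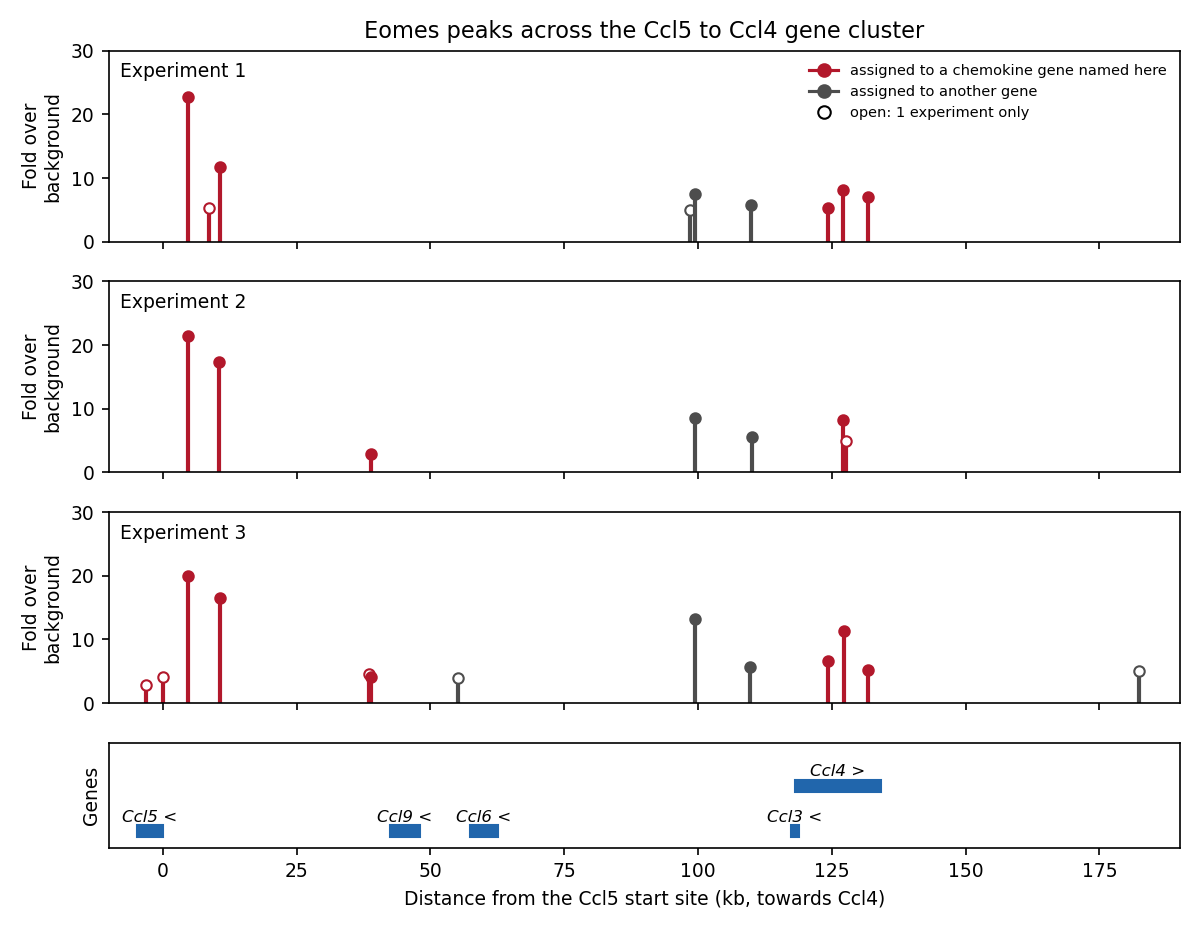
Fold over background of the regions in the Ccl5 to Ccl4 cluster, by experiment, against distance from the Ccl5 start in kb. Each region is drawn by its peak with the highest −log10 q-value in that experiment. Red marks peaks assigned to a chemokine gene described here, grey those assigned to another gene, open circles regions of 1 experiment only, and bars below are the RefSeq spans of the 5 Ccl genes with their direction. The tall pair at the left is upstream of Ccl5, with folds from 11.7 to 22.7, and the grey pair lies between Ccl6 and Ccl3.

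Xcl1, which encodes lymphotactin, the chemokine that attracts Xcr1-bearing dendritic cells, had 8 regions, more than any other of the 6 genes. Its leading site lay far upstream (chromosome 1, 164965986 to 164966522), at -30504, -30533 and -30459 bp from the start in experiments 1, 2 and 3. The pileup was 62, 75 and 108 fragments and the fold 15.6, 22.5 and 20.3. The peak ranked 135, 31 and 70 in its list, so it stood among the strongest peaks of each experiment although the order of experiments by fold was not that of Ccl5. Its summits fell within 15 bp of each other, a spread not exceeded by 9.29% of regions found in every experiment. The mean fold of 19.5 ± 3.49 (SD, n = 3) placed it 80th of the 10328 regions and 23rd of the distal intergenic ones.

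The Xcl1 promoter also had a peak in every experiment (164935744 to 164936095), at -302, -287 and -217 bp from the start. The pileup there was 21, 23 and 46 fragments and the fold 6.36, 7.09 and 8.75, a mean of 7.40 ± 1.22 (SD, n = 3). Among the 6594 promoter regions found in every experiment this was rank 1273, against a median fold of 5.47. The far upstream site exceeded the promoter in 3 of 3 experiments, by 2.46, 3.17 and 2.32 times in fold. Xcl1 and Ccl4 were the only genes of the 6 with a reproducible region in the promoter class.

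Between these sites, an intermediate Xcl1 region (164953644 to 164953946) was found in experiments 1 and 3, at -18135 and -18117 bp, within the span of the noncoding RNA gene Gm39692. It had 19 and 25 fragments and folds of 4.50 and 5.78, and summits 4 bp apart. The other 5 Xcl1 regions came from 1 experiment each, with 9 to 19 fragments. They ranged from 64527 bp downstream of the start, in experiment 2, to -40227 bp, in experiment 3, where the peak (164975754 to 164975984) had the highest fold of the single-experiment chemokine regions, 6.01.

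**Figure D2:**
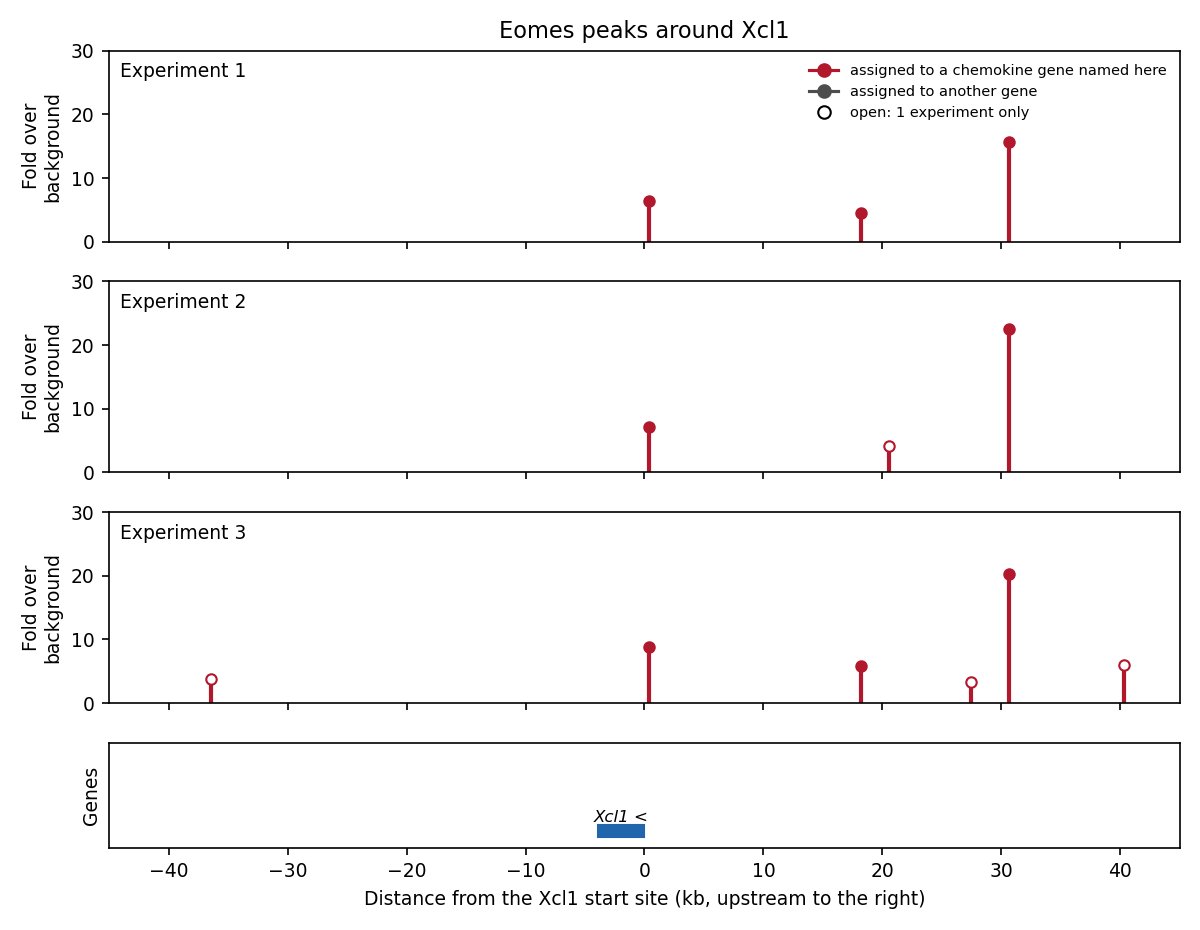
Fold over background of peaks around Xcl1, by experiment, against distance from its start in kb, with upstream to the right. Filled circles are reproducible regions and open circles regions of 1 experiment. The promoter peak (fold 6.36 to 8.75) and the far upstream peak (fold 15.6 to 22.5) appear in all 3 experiments, and the intermediate peak in experiments 1 and 3. The peak of experiment 2 at 64527 bp downstream lies outside the range drawn.

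Ccl4 and Ccl3 encode closely related chemokines and are transcribed in opposite directions from neighbouring starts, at 83662584 and 83649355. The reproducible sites assigned to them lay in the stretch between these starts. The leading one was assigned to Ccl4 (chromosome 11, 83657552 to 83657870), at -4714, -4754 and -4716 bp. It had 28, 27 and 47 fragments and folds of 8.14, 8.28 and 11.3 in experiments 1, 2 and 3, a mean of 9.25 ± 1.81 (SD, n = 3). By mean fold it ranked 316 of the 1658 distal intergenic regions found in every experiment, whose median was 6.17. Its summits spanned 31 bp.

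The Ccl4 promoter region (83662155 to 83662409) was found in experiments 1 and 3 only. Its pileup was 24 and 31 fragments and its fold 7.01 and 5.12, a mean of 6.07 ± 1.34 (SD, n = 2). The upstream site exceeded it by 1.16 times in experiment 1 and 2.21 times in experiment 3. No peak at the Ccl4 promoter was listed in experiment 2, which had instead a small peak with 11 fragments (83658093 to 83658246, fold 4.97) next to the upstream site.

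Ccl3, which encodes a ligand of Ccr1, had 1 region (83654657 to 83654888), found in experiments 1 and 3 at -5328 and -5302 bp. It had 16 and 23 fragments and folds of 5.23 and 6.63, a mean of 5.93 ± 0.996 (SD, n = 2), and its summits were 14 bp apart. No peak covered the Ccl3 start in any experiment, and the deposited lists placed no promoter-class peak on the gene. The Ccl3 site and the leading Ccl4 site were 2914 bp apart, summit to summit. The leading Ccl4 site was 8.3 kb from the Ccl3 start and the Ccl3 site 7.8 kb from the Ccl4 start, so the assignment of each to one gene rests on proximity alone. RefSeq extends Ccl4 to 83648624, so that these 3 regions all fall inside its gene span, while the deposited annotation, built on Ensembl transcripts, classed the upstream pair as intergenic.

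Ccl9, a chemokine gene described mainly in myeloid cells, had the weakest reproducible region of the group. It lay 7624 and 7581 bp downstream of the annotated start in experiments 2 and 3 (83569294 to 83569561), beyond the end of the gene and between Ccl5 and Ccl9. The pileup was 9 and 14 fragments and the fold 2.96 and 4.14. In experiment 2 it ranked 33035 of 33841 peaks, with a −log10 q-value that a cutoff of 2 removes, and the 2 summits were 84 bp apart, the widest spread among the 9 regions. A neighbouring peak of experiment 3 (83568958 to 83569174, 14 fragments) overlaps the pseudogene Ccl16-ps. Ccl6 had no assigned peak in any experiment, as was the case for 28.9% of protein-coding genes. The nearest region to its start lay 7046 bp downstream, in an intron of E230016K23Rik, with 12 fragments in experiment 3 alone (83585590 to 83586041). The numbering of peak names ran without a break across the cluster in all 3 lists, so no peak had been dropped there. Whether reads could be placed uniquely at Ccl6 and Ccl9 was not tested.

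**Figure D3:**
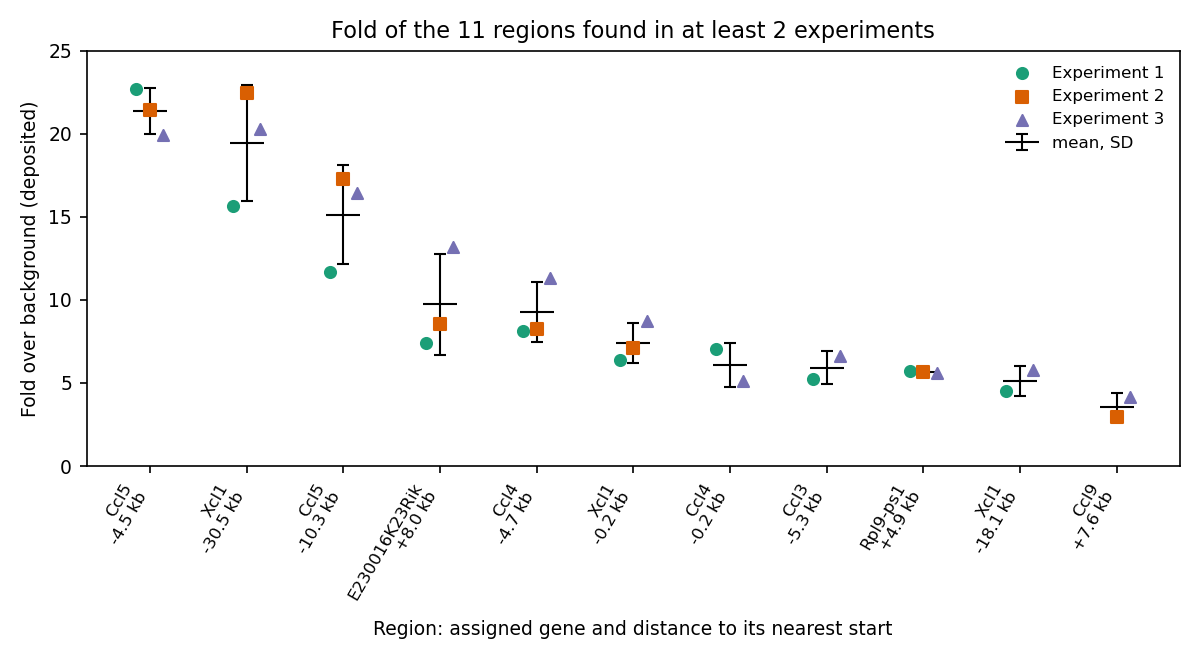
Deposited fold over background of the 9 reproducible regions of the chemokine genes and of 2 neighbours in the cluster assigned to E230016K23Rik and Rpl9-ps1, by experiment, with mean and SD. Regions run from the highest mean fold (Ccl5, 21.4) to the lowest (Ccl9, 3.55), and a missing symbol means that the experiment had no peak there.

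Within 50 kb of the 6 genes there were 23 regions, 11 of them reproducible, of which 9 were assigned to a chemokine gene and 2 to a neighbour. Both of those lay on chromosome 11 between Ccl6 and Ccl3 and were found in every experiment. One (83629674 to 83630098), assigned to the noncoding RNA gene E230016K23Rik, had 32, 28 and 50 fragments and folds of 7.43, 8.57 and 13.2, a mean of 9.73 ± 3.06 (SD, n = 3). It was thus of the size of the leading Ccl4 site, with summits within 12 bp. Among the chemokine genes it was closest to Ccl3, 19.4 kb from its start. The other (83640124 to 83640720), assigned to the pseudogene Rpl9-ps1, had 23, 13 and 34 fragments and folds of 5.73, 5.64 and 5.60. Its summit was 9.0 kb from the Ccl3 start on the downstream side, its summits spread over 296 bp, and experiment 2 had a pair of separate peaks there. Counting these, 8 reproducible regions lay in the 138.9 kb from Ccl5 to Ccl4.

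Ordered by the mean fold of the leading site, Ccl5 stood first, followed by Xcl1, Ccl4, Ccl3 and Ccl9. Ccl5 and Xcl1 did not differ beyond their spread. The mean log2 difference was 0.15 ± 0.34 (SD, n = 3) and Ccl5 was the higher in 1 of 3 experiments (two-sided exact permutation p = 1). Xcl1 exceeded Ccl4 in 3 of 3 experiments, by 1.07 ± 0.32 on the log2 scale (SD, n = 3, exact permutation p = 0.25, adjusted 0.75). Ccl4 exceeded Ccl3 in both experiments that held the Ccl3 site, by 0.71 ± 0.09 (SD, n = 2, exact permutation p = 0.5, adjusted 0.75). The p-values of 0.25 and 0.5 are the smallest that 3 and 2 pairs allow, so the number of experiments did not allow any of the 3 tested pairs to reach significance. Ccl3 and Ccl9 shared only experiment 3, where Ccl3 was higher by 0.68.

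**Figure D4:**
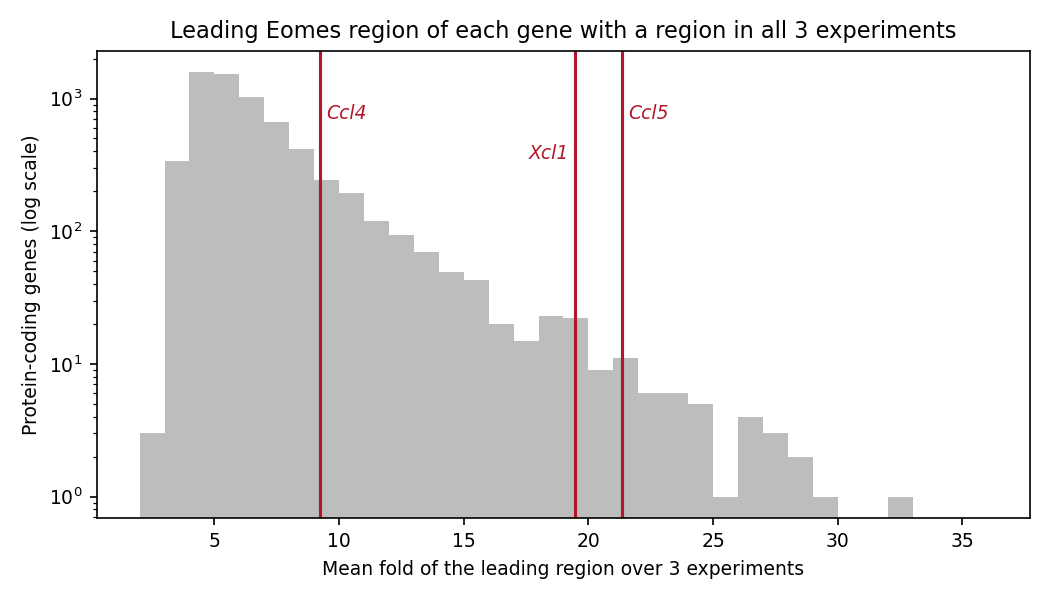
Mean fold of the leading region for the 6526 protein-coding genes whose leading region was found in all 3 experiments, as a histogram with a log scale of gene number. Red lines mark Ccl4 at 9.25, Xcl1 at 19.5 and Ccl5 at 21.4, and the median of all these genes was 5.85.

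Set against all genes, the leading sites of Ccl5 and Xcl1 stood in the upper tail. A leading region in all 3 experiments was found for 6526 protein-coding genes (29.8%), with a median mean fold of 5.85 and a 90th percentile of 10.2. Only 34 genes had a higher mean fold than Ccl5 and 61 a higher one than Xcl1, while 880 exceeded Ccl4. The genes most like Ccl5, by the distance of log2 fold over the 3 experiments among 603 genes with a distal intergenic leading region, were Osgin1, Rab3gap2 and Dusp2, a gene for a MAP kinase phosphatase. Osgin1 had folds of 22.5, 19.3 and 22.7, Rab3gap2 had 23.6, 18.2 and 22.2, and Dusp2 had 23.6, 23.9 and 23.6. Those sites lay at -9884, -98248 and -21119 bp from the assigned starts in experiment 1.

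The background under most of the chemokine peaks was above the median of their list. Recovered from pileup and fold, it was 3.19, 2.78 and 6.12 fragments at the leading Ccl5 site in experiments 1, 2 and 3, where the median over each list was 1.97, 1.35 and 2.62. At the leading Xcl1 site it was 3.03, 2.38 and 4.37. It lay above the list's median for 22 of the 23 peaks in reproducible chemokine regions, and the other was level with it. Among peaks of all reproducible regions this share was 69.3%, and among the chemokine peaks of 1 experiment only it was 7 of 10. Of the sites most like that of Ccl5, Osgin1 had 3.44, 2.78 and 5.25 fragments and Dusp2 had 2.64, 1.97 and 4.37, all above the median. Rab3gap2 had 1.97, 3.18 and 4.00, level with the median in experiment 1 and above it in experiments 2 and 3. A fold understates the number of IP fragments where the background is high, which at the Ccl4 promoter in experiment 3 was 5.25 fragments.

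**Figure D5:**
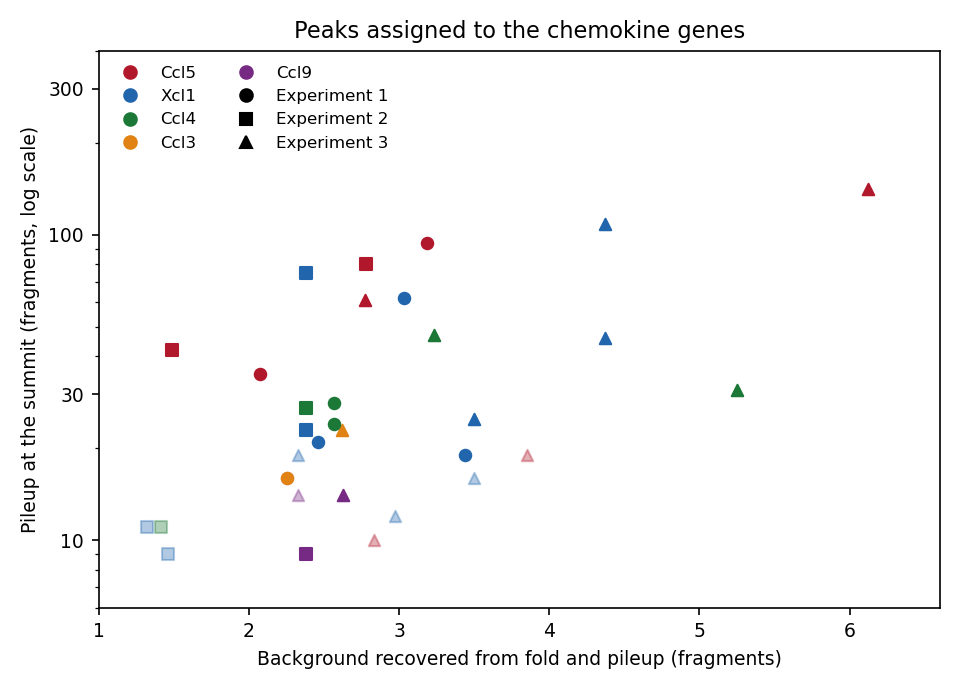
Pileup at the summit (log scale) against the background recovered from the fold, both in fragments, for the 33 peaks of the chemokine genes. Colour gives the gene, marker shape the experiment, and pale symbols belong to regions of 1 experiment only. The leading Ccl5 and Xcl1 peaks (62 to 141 fragments) stand above all others, and peaks of 1 experiment hold at most 19 fragments.

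The 6 genes were next compared with the rest of the chemokine family. A reproducible region was present at 5 of the 6 NK cell chemokine genes (83.3%) and at 5 of 29 other chemokine ligand genes (17.2%). Of those 29 genes, 13 had no peak at all. Among all protein-coding genes, 44.8% had a reproducible region and 28.9% had no peak, so the other ligands were below the share of all genes. The median number of reproducible regions was 1.5 for the 6 genes, 0 for the other ligands and 0 for all protein-coding genes. Those with a region in every experiment were Ccl1, Ccl28 and Cxcl14. Their leading sites had mean folds of 9.27 ± 2.19, 3.51 ± 1.23 and 4.06 ± 0.61 (SD, n = 3 each), all below the leading sites of Ccl5 and Xcl1. The mean fold of the leading Ccl4 site (9.25) was level with that of Ccl1, and those of Ccl3 (5.93) and Ccl9 (3.55) were below it. By experiment, Ccl4 had folds of 8.14, 8.28 and 11.3 where Ccl1 had 10.7, 10.3 and 6.75. Ccl1 was thus the higher in experiments 1 and 2 and Ccl4 in experiment 3. Ccl25 and Ccl22 had leading sites found in 2 experiments, with mean folds of 7.31 ± 0.58 and 5.85 ± 3.28 (SD, n = 2 each). The Ccl25 site came from experiments 2 and 3, as did that of Ccl9, with folds of 6.90 and 7.73 against 2.96 and 4.14. The Ccl22 site came from experiments 1 and 3, as did that of Ccl3, with 8.17 and 3.54 against 5.23 and 6.63. In experiment 3, Ccl25 was also above Ccl3, and Ccl22 was below Ccl9. Ccl5 and Xcl1 had 2 regions each that were found in every experiment, where Ccl28 had 3. Xcl1 had 8 regions in all, where Ccl1 had 11, of which 2 were reproducible. Ccl1 belongs to a second group of 6 Ccl genes 1.35 Mb away on chromosome 11, with Ccl2, Ccl7, Ccl8, Ccl11 and Ccl12. Ccl1 was the only one of them with a reproducible region, and 4 had no peak. Of the ligands of the receptor Cxcr3, Cxcl9 had no peak and Cxcl10 had a single weak peak, in experiment 3 (10 fragments, fold 3.30).

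Of the 5 receptor genes reported here, 3 had a reproducible region. They are not all the receptors of these chemokines, so the count is not a share of that family. Ccr1, a receptor of Ccl3, Ccl5, Ccl6 and Ccl9, had 2, the leading one with folds of 4.47, 6.19 and 3.52. Ccr3, a receptor of Ccl5, and Ackr2, a scavenger receptor of inflammatory chemokines, had 1 each, found in experiments 1 and 3. Xcr1, the receptor of Xcl1, and Ackr1, which binds inflammatory chemokines without signalling, had no peak.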

How the data were processed

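Eomes ChIP-seq of cultured mouse NK cells gave 3 IP libraries, each compared with the input of its own experiment. Per the labels' protocols, libraries were size-selected (200 to 600 bp) and went through 15 PCR cycles. Per the submitters' processing notes, Novoalign and ChIPseeker were used with the mm10 build. No source used here names the peak caller, its settings or any version. Per the file headers, each list gives per peak a pileup signal, a fold enrichment (a ratio to background) and a −log10 p-value and −log10 q-value. Experiments 1, 2 and 3 are the replicate numbers of the labels, and the lists were called per experiment.

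Sub-peaks of one interval were collapsed to the one with the highest −log10 q-value. Intervals sharing at least 1 bp were merged, and a region belonged to a gene when any of its peaks carried that symbol. The merging was tested on simulated data, and on the deposited lists it gave the same 84399 regions, 20126 of them reproducible, as bedtools 2.31.1. The local background of a peak was obtained by dividing pileup + 1 by the fold and subtracting 1. Poisson probabilities computed from it differed from the deposited −log10 p-value by at most 0.000336. Interval lengths in the lists exceed the printed intervals by 1 bp, so starts may be shifted by 1 bp. The running numbers in the peak names skip 20, 23 and 25 values in the 3 lists. The leading region of a gene is the one found in most experiments and, among these, with the highest mean percentile of −log10 q-value. SDs are over experiments, which the labels call separate. Exact permutation tests flipped the signs of paired log2 fold differences (scipy 1.17.1), with Benjamini-Hochberg adjustment over 3 pairs. Binomial intervals are exact Clopper-Pearson at 95% and cover counting error only. They treat regions as independent, which sites of a shared cluster or gene may not be. Named were all 6 members with their regions, genes assigned regions within 50 kb of them, the 2 family lists and the 3 genes most like the member with the highest fold. Of 30 other ligand genes listed, 29 were protein-coding in the table, with Cxcl11 the exception. One gene of the receptor list is not reported here, so counts for it cover the other 5 and are not a share of the whole list. Cxcl9, Cxcl10, Ccl22 and Ccl25 were named after their values were seen. Members and lists were chosen with earlier results of these data known.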

Additional observations from a re-analysis of the deposited data

How the results depend on the processing

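Joining peaks only where they share 50% of the shorter one, joining peaks within 200 bp, assigning regions by their best peak and choosing sub-peaks by pileup left every count and every leading fold tried within 1.5 times, or 1 SD, of the value reported. With a −log10 q-value of at least 2, Ccl9 had 0 reproducible regions. With at least 5, Ccl9 had 0, 11 regions were left in all and 3 other chemokine ligand genes were covered. Leaving out 1 experiment at a time gave 5 to 8 reproducible regions of the 6 genes, 13 to 18 regions in all, and 3 to 4 genes with a reproducible one. It gave 0 to 1 for Ccl3, 1 to 2 for Ccl4, 0 to 1 for Ccl9, 2 to 3 for Xcl1, 3 to 4 other ligand genes, 1 to 3 receptor genes and 7 to 10 reproducible regions within 50 kb. Ccl3 lost its region without experiment 1 or 3, as did the Ccl4 promoter, and Ccl9 lost its own without experiment 2 or 3. Receptor genes fell to 1 without experiment 1 or 3. Without experiment 3, 5 regions at 3 genes were left, and 31.0% of all protein-coding genes had a reproducible region. That share of all genes was 37.4% without experiment 1 and 36.0% without experiment 2. It was 42.2% with a −log10 q-value of at least 2 and 25.6% with at least 5, against 44.8% as reported. Ccl5 had 2 reproducible regions under every setting, with a leading fold of 20.7 to 22.1 when 1 experiment was left out, and Xcl1 had 18.0 to 21.4. No leading fold could be had for Ccl3 or Ccl9 once their region was lost. No paired analysis was possible because, between IP and input libraries, the only values are those of the deposited lists, which already set each IP against its own input. The exact tests between genes already pair values within an experiment.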
